A study of Mus musculus with 6 samples.

Results

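The cadherin superfamily genes other than Cdhr1 were described in retinas of mice that lack photoreceptor cadherin (prCAD), the product of Cdhr1. Members were all probe sets whose only gene symbol in the array's annotation names a Cdh, Pcdh, Celsr, Fat, Dchs, Clstn, Dsg or Dsc gene. They came to 130 probe sets of 73 genes, out of 45037 probe sets and 18193 named genes. A gene with several probe sets was represented by the one with the highest mean over the 6 arrays. The groups were prCAD -/- mice (3 arrays) and wild type 129 mice (3 arrays), aged about 4 weeks, and retinal RNA was hybridised to Affymetrix arrays. Retinas of 3 mice were pooled for each array, and errors therefore describe pools rather than single animals. The sources used here do not give the strain of the mutant mice, and a difference that came with strain cannot be told apart from one that came with the mutation. The comparison asks which cadherin family transcripts the retina holds and whether any is more abundant where Cdhr1 is lost.

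Cadherins are cell surface proteins with repeated extracellular domains that bind calcium. The classical cadherins hold neighbouring cells together and are anchored to actin through catenins. Protocadherins serve in recognition between neurons, the Fat, Dchs and Celsr proteins in planar polarity and neurite patterning, and the calsyntenins in vesicle transport and at synapses. Cdhr1 is a divergent family member that sits at the base of the photoreceptor outer segment, where new discs form.

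Cdhr1 checks the labels. Its probe set read 3.94, 4.20 and 4.34 in mutant arrays, against 11.32, 11.36 and 10.98 in wild type arrays, on the log2 scale of the deposited values. The mutant and wild type arrays did not overlap, with a limma adjusted p of 2.18e-05. All mutant arrays lay below the background limit of 6.35 that is defined with the wild type levels, so the difference has only a bound. Set against that limit, the signal was at least 29.1-fold lower in mutant retina (group means of 4.16 in mutant and 11.22 in wild type arrays). Where these probes lie relative to the disrupted part of the gene is not stated in the sources used here. Photoreceptor markers were bright in both groups, with a mean log2 value over 10 measured genes between 10.78 and 10.98 in mutant arrays and between 10.91 and 11.03 in wild type arrays. Of these, 7 of 10 were lower in mutant retina, and the list mean was lower in every pair. The mean over 14 pigment epithelium genes ran from 6.35 to 6.68 in mutant arrays and from 5.31 to 6.005 in wild type arrays, and 13 of the 14 were higher in mutant retina. All 8 measured ganglion cell genes were lower, with list means of 6.77 to 7.04 in mutant and 7.15 to 7.40 in wild type arrays. Lens genes averaged between 9.83 and 10.81 in mutant arrays and between 8.85 and 10.60 in wild type arrays, with 13 of 14 higher in mutant retina. The groups overlapped, and the list mean differed by 0.02, 0.20 and 1.73 in the 3 pairs, the last with the low wild type array 3. The mean over 8 Müller glia genes was higher in every pair, from 9.30 to 9.48 in mutant arrays and from 8.94 to 9.33 in wild type arrays, with 5 of the 8 higher. The mean over 6 astrocyte genes ran from 6.498 to 6.68 in mutant arrays and from 5.92 to 6.25 in wild type arrays, with 5 of the 6 higher. The part of these markers in the cadherin values was not tested. In whole retina, fewer cells of a type and less RNA per cell cannot be told apart.

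Promoter sequences of 300 bases (250 before and 50 after the annotated start) are shown for Cdhr1, Clstn1 and Clstn3. The Cdhr1 probe set lost its signal, and Clstn1 was the member above background with the largest difference. Clstn3 is shown for a TAATCC motif. Of its 2 promoters, the one shown was the only promoter among the members above background to hold that motif. The other Clstn3 promoter does not hold it. The sequences shown are from RefSeq, build GRCm38.p6, at chr14:37098298-37098597 (minus strand), chr4:149586218-149586517 (plus strand) and chr6:124462695-124462994 (minus strand). TAATCC is the core of sites bound by CRX, a homeodomain factor of photoreceptors. It was searched on both strands, where the other strand reads GGATTA, and matches are in capitals.
Cdhr1: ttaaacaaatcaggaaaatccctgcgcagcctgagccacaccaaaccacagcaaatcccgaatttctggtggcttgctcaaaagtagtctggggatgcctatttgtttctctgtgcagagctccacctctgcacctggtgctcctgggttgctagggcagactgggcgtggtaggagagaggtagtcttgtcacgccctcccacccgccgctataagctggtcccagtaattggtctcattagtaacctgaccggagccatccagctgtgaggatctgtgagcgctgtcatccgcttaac
Clstn1: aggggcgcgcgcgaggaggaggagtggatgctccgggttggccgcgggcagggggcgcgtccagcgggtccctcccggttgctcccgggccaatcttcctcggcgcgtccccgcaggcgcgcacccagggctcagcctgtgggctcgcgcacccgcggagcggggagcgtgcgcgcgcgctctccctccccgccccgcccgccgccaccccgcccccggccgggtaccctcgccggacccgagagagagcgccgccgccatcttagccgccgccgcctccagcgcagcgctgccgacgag
Clstn3: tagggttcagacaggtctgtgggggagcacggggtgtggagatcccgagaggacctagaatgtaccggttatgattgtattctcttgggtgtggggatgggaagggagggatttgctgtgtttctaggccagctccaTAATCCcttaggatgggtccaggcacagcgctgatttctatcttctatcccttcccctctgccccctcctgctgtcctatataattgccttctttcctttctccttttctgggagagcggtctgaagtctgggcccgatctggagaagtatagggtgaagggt

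Of the 11 members above the background limit defined next, 9 matched the promoter table, with 11 promoters. The motif was in 1 of these 11 promoters (9.1%), against 2320 of 32851 promoters of all genes (7.1%). The Cdhr1 and Clstn1 windows hold no match. Of the members as a whole, 29 of 73 matched, with 33 promoters. The motif was in 3 of these (9.1%), of Clstn3, Cdh7 and Cdh26. None of the 23 clustered protocadherins matched, so this share does not stand for all members. The windows differ in base composition. The Clstn1 promoter has 79.7% G and C with 48 CpG pairs, the Cdhr1 promoter 54.0% with 9 and the Clstn3 promoter shown 53.0% with 6 (58.3% with 8 in the other), against a median of 52.7% with 7 over all promoters.

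RMA values carry no detection call, so a background limit was set from genes restricted to other tissues, such as those of liver, pancreas, testis and skin. The 95th percentile of the wild type means of 43 such genes was 6.35, and the median of all probe sets was 4.76. A member was counted above background where every wild type array exceeded the limit. By this rule 11 of 73 members (15.1%) were above background, against 33.6% of all named genes. They were Cdh2, Cdh4, Celsr2, Celsr3, Fat1, Fat3, Clstn1, Clstn2, Clstn3, Pcdh8 and Pcdh9. Pcdh8 counts through a probe set that can cross-hybridise by its name, and its other probe set lay below the limit on every wild type array, at 5.66, 6.08 and 5.66. Another 21 members lay between the median and the limit in every wild type array or above it in some, and 41 did not exceed the median in every array. The median was exceeded by 32 members (43.8%), against 61.9% of all genes. Closest above the limit was Clstn2, whose lowest wild type array read 6.36, and closest below it was Cdh11, whose lowest read 6.04. The count depends on the limit: 5 members exceeded the brightest gene of the background list at 7.05. Different probe sets bind with different strength, so each value was set against the limit and the genes were not ordered by abundance.

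**Figure D1:**
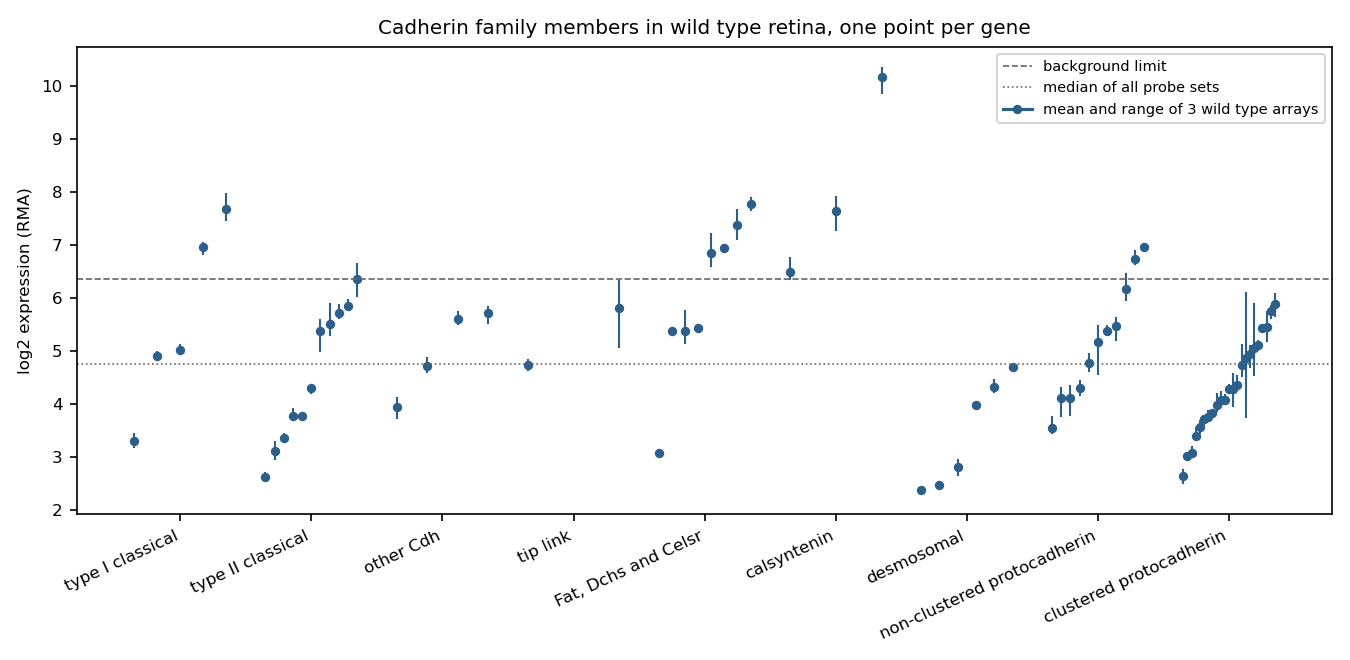
Log2 expression (vertical axis) of the 73 cadherin family genes in wild type retina, by subfamily; points are means and lines the range of 3 wild type arrays. The dashed line is the background limit of 6.35, which 11 genes exceed in every array, and the dotted line is the median of all probe sets, 4.76.

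No member passed the test between mutant and wild type retina. With limma and Benjamini-Hochberg adjustment over 45037 probe sets, 0 of 73 members and 0 of their 130 probe sets passed at 0.05, where 3 of all named genes (0.0165%) and 5 of all probe sets (0.0111%) did. The smallest adjusted p of a member was 1.00. With the replicate number as a block, 0 members and 0 of their probe sets passed as well, and the smallest adjusted p was 0.507. With the block 8 genes (0.044%) and 15 probe sets (0.0333%) passed among all. At an unadjusted p under 0.05 there were 3 members (4.11%), against 3.42% of all genes, and with the block 9 members (12.3%; 6 higher and 3 lower), against 7.44%. The median difference of the 73 members was 0.01 and that of all 18193 genes 0.02 on the log2 scale. The median absolute difference was 0.08 for members and 0.08 for all genes. Of the members 43 lay higher and 30 lower in mutant retina, and of all genes 10621 lay higher and 7572 lower. Within the pairs of same-numbered arrays the members' median differences were 0.05, -0.00074 and 0.05.

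For the 11 members above background the intervals give the range of differences allowed by the fit on group alone. All intervals and SE come from this fit unless the replicate block is named. Their differences ran from -0.20 (Pcdh9) to 0.35 (Clstn1), with a median of 0.00097. The upper end of the 95% interval lay under 0.50 for 9 of them, and the exceptions were Clstn1 at 0.72 and Fat1 at 0.64. The Clstn1 bound corresponds to a 1.64-fold higher signal, the highest bound in this group without the block. With the replicate block the Clstn1 interval ran from 0.09 to 0.62, which leaves out 0, at a limma adjusted p of 0.595. The highest upper end was then that of Fat1, at 0.66. No member exceeded the limit in every mutant array without doing so in every wild type array. For the 62 members not above the limit, background compresses differences, and their intervals do not bound the change in transcript. The intervals were not adjusted for the number of genes.

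**Figure D2:**
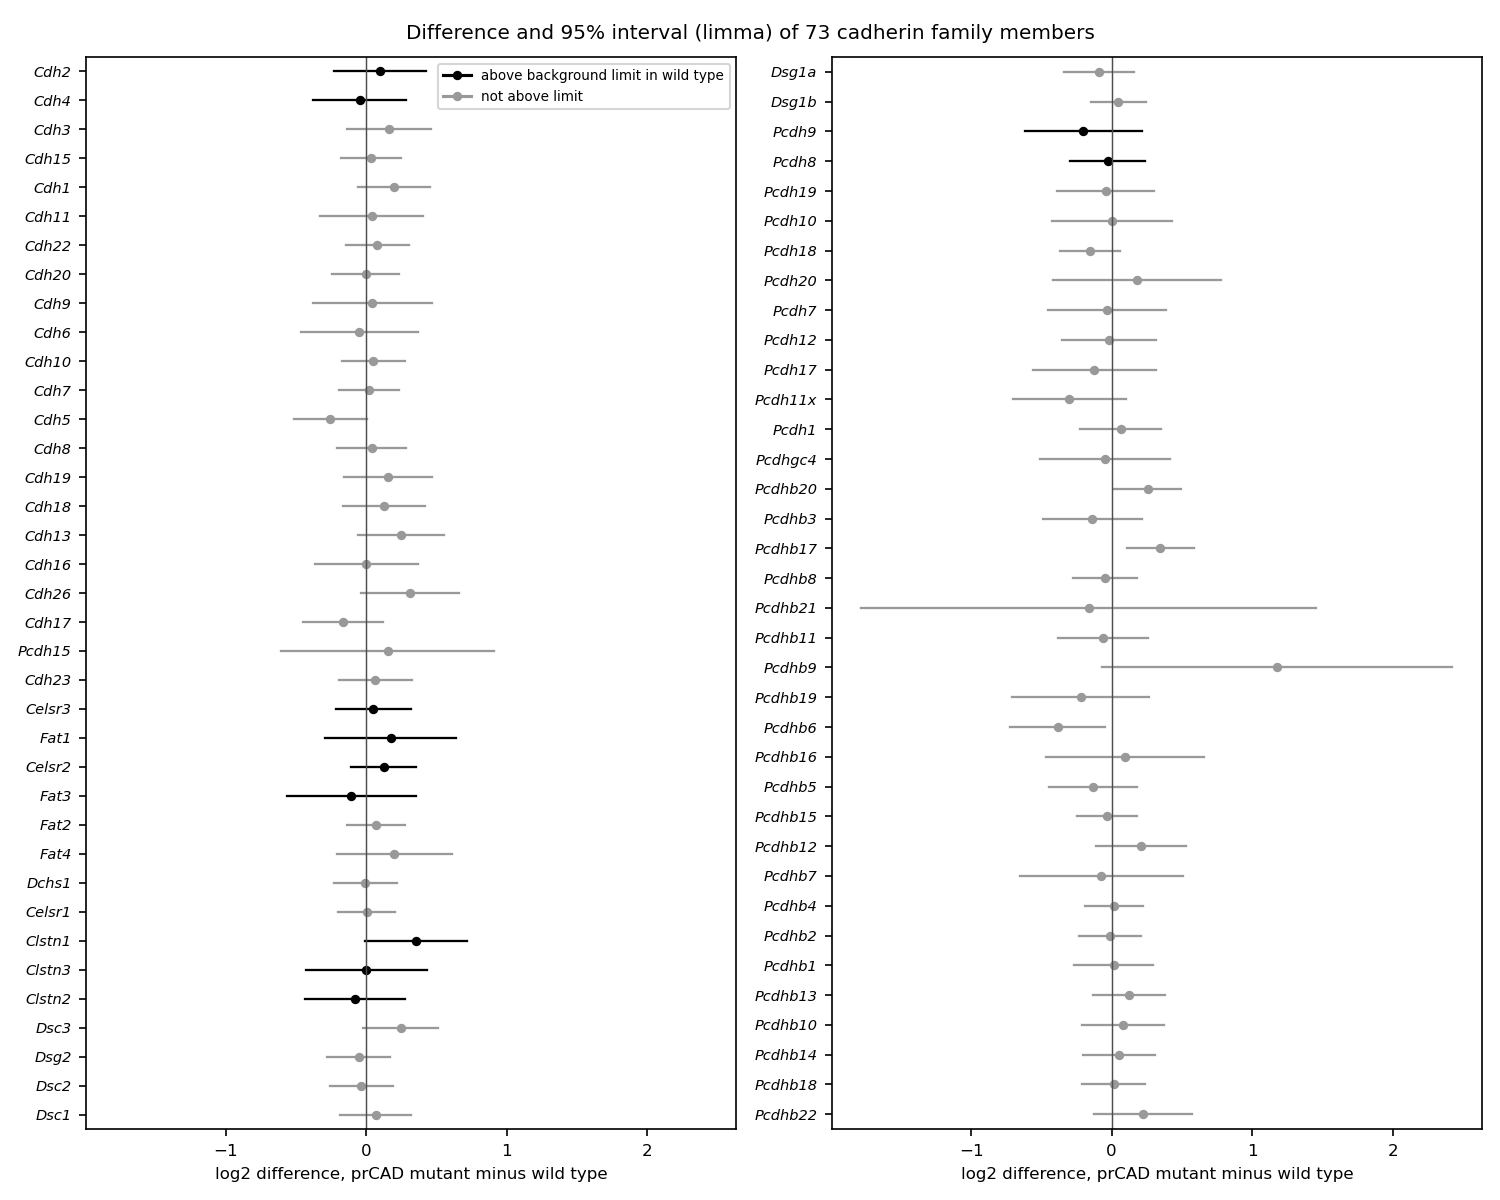
Log2 difference (prCAD mutant minus wild type, horizontal axis) of the 73 cadherin family genes, grouped by subfamily, with 95% intervals from limma without the replicate block. Genes above the background limit in wild type are in black and lie between -0.20 and 0.35. The widest intervals are those of Pcdhb9 and Pcdhb21.

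Among the classical cadherins, the N-cadherin gene Cdh2 and the R-cadherin gene Cdh4 were above background. Cdh2, the main cadherin of neural adherens junctions, read 7.85, 7.74 and 7.77 in mutant arrays, against 7.48, 7.97 and 7.61 in wild type arrays. The wild type arrays spanned the mutant ones, and the difference was 0.10 (95% interval -0.23 to 0.42). Its other probe set differed by 0.10 as well. Cdh4 read 7.07, 7.05 and 6.65 in mutant arrays, against 7.04, 7.03 and 6.84 in wild type arrays, with a difference of -0.05 (95% interval -0.38 to 0.29). In both groups array 3 was the lowest. The dimmer Cdh4 probe sets differed by -0.20 (SE 0.14) and -0.11 (SE 0.11). The other type I members, Cdh1, Cdh3 and Cdh15, lay below the limit. Cdh3, the P-cadherin gene, which the pigment epithelium expresses, read 5.38, 5.23 and 4.96 in mutant arrays, against 5.10, 4.95 and 5.02 in wild type arrays. One of the mutant arrays lay within the wild type range and the others above it, at a difference of 0.16 (SE 0.13). Its pairs differed by 0.27, 0.28 and -0.06, and the mean of the pigment epithelium list by 0.57, 0.67 and 1.04. A link between Cdh3 and that list was not tested. Cdh1, the E-cadherin gene of epithelia, read 3.47, 3.40 and 3.63 in mutant arrays, against 3.29, 3.43 and 3.19 in wild type arrays, below the median on every array.

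Type II cadherins, many of which mark subsets of retinal neurons and help match their partners, had 0 of 11 members above the limit. Cdh11 came closest and read 6.44, 6.33 and 6.41 in mutant arrays, against 6.38, 6.64 and 6.04 in wild type arrays. Its groups overlapped, with a difference of 0.04 (SE 0.16). Cdh6, used in mouse by direction-selective ganglion cells, read 5.14, 5.46 and 5.36 in mutant arrays, against 5.58, 5.54 and 4.996 in wild type arrays. The wild type arrays were more spread than the mutant ones and covered their whole range. Cdh10 read 4.30, 4.31 and 4.45 in mutant arrays, against 4.19, 4.36 and 4.35 in wild type arrays. For Cdh8, which guides bipolar cell axons to their layer in mouse, the values were 3.36, 3.53 and 3.27 in mutant arrays, against 3.34, 3.43 and 3.27 in wild type arrays. Both lie below the median of all probe sets, and in both the groups overlapped. The endothelial VE-cadherin gene Cdh5 read 3.41, 3.48 and 3.68 in mutant arrays, against 3.90, 3.69 and 3.74 in wild type arrays. The groups did not overlap, at -0.25 (95% interval -0.51 to 0.01) and an adjusted p of 1.00 (limma), but both are below the median. At the dimmer Cdh5 probe set the groups overlapped, with a difference of -0.09 (SE 0.12). The mean over 10 vascular marker genes ran from 5.90 to 6.10 in mutant arrays and from 5.78 to 6.01 in wild type arrays. The differences of all type II members lay between -0.25 (Cdh5) and 0.16 (Cdh19).

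The members with an atypical structure gave no call either. Cdh13, a cadherin held to the membrane by a lipid anchor, read 6.01, 5.76 and 6.10 in mutant arrays, against 5.77, 5.82 and 5.53 in wild type arrays. It differed by 0.25 (95% interval -0.06 to 0.55), and 1 mutant array lay below the highest wild type array. With array weights the difference was 0.06. The next brightest Cdh13 probe set differed by 0.19 (SE 0.10), with every mutant array above every wild type array. Those dimmer still differed by -0.01 and 0.01. The other Cdh members of this kind, Cdh16, Cdh17 and Cdh26, differed by -0.16 to 0.31, and Cdh26, named after its values were seen, was higher in all 3 pairs without passing (limma adjusted p = 1.00, or 0.566 with the replicate block). Cdh23 and Pcdh15 form the tip links of hair cells, and their loss causes Usher syndrome in humans. Pcdh15 read 6.28, 5.67 and 5.93 in mutant arrays, against 6.02, 5.08 and 6.32 in wild type arrays. Array 2 was the lowest in each group, and the difference was 0.15 (95% interval -0.60 to 0.91, or -0.28 to 0.59 with the replicate block). The other Pcdh15 probe sets differed by 0.21 and 0.02, and at neither was array 2 the lowest mutant array. Cdh23 read 4.88, 4.88 and 4.62 in mutant arrays, against 4.83, 4.71 and 4.64 in wild type arrays, close to the median of all probe sets. Its dimmer probe set, below that median, differed by 0.20 (SE 0.14). There it was higher in all 3 pairs without passing (limma adjusted p = 0.657 with the replicate block). The 5 measured genes of the Usher complex around these cadherins had a median difference of 0.03, and 0 passed. Myo7a, an actin motor, differed by 0.12 (SE 0.09), Clrn1, a membrane protein, by -0.09 (SE 0.10), the scaffold gene Ush1c by 0.08 (SE 0.13) and the scaffold gene Whrn by 0.03 (SE 0.12).

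Of the 8 Fat, Dchs and Celsr members 4 were above background. Celsr3, a 7-pass cadherin of axon guidance, read 7.97, 7.81 and 7.69 in mutant arrays, against 7.90, 7.75 and 7.66 in wild type arrays. In each pair the mutant array was slightly higher, by 0.07, 0.06 and 0.03, while the groups overlapped. Celsr2 read 7.17, 7.12 and 6.94 in mutant arrays, against 6.95, 7.01 and 6.90 in wild type arrays, and its pairs differed by 0.22, 0.12 and 0.04. Its difference was 0.12 (95% interval -0.11 to 0.36), and at the other probe set 0.14. Celsr1 lay near the floor of the scale with 3.13, 3.09 and 3.02 in mutant arrays, against 3.13, 3.07 and 3.02 in wild type arrays, and the groups overlapped. Fat1, a giant cadherin that binds actin regulators, read 7.37, 7.38 and 7.91 in mutant arrays, against 7.35, 7.67 and 7.11 in wild type arrays. Mutant array 3 was the highest, and the pair differences of 0.02, -0.29 and 0.80 had no common sign. Fat3, which shapes amacrine cell dendrites in mouse, read 6.47, 6.81 and 6.98 in mutant arrays, against 6.60, 6.78 and 7.21 in wild type arrays. Array 3 was the highest in each group, and the difference was -0.10 (95% interval -0.56 to 0.35, or -0.32 to 0.11 with the replicate block). Fat4 and its ligand Dchs1 lay between the median and the limit. Fat4 read 5.47, 5.71 and 5.54 in mutant arrays, against 5.20, 5.76 and 5.15 in wild type arrays, and the groups overlapped. Dchs1 read 5.29, 5.48 and 5.32 in mutant arrays, against 5.37, 5.44 and 5.30 in wild type arrays, with a difference of -0.01 (95% interval -0.23 to 0.22). Among 12 measured planar polarity genes, which act with the Celsr proteins, 0 passed and the median difference was 0.05. Ankrd6 differed by 0.34 (SE 0.16), Vangl2 by 0.20 (SE 0.11), Vangl1 by 0.16 (SE 0.11) and Ptk7 by 0.24 (SE 0.16).

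Calsyntenins were the only subfamily with every member above background at its brightest probe set. Clstn1, a cargo adaptor of kinesin that is also found at synapses, read 10.71, 10.42 and 10.46 in mutant arrays, against 10.35, 10.29 and 9.88 in wild type arrays. The groups did not overlap, and wild type array 3 was the lowest of the 6. The difference was 0.35 (95% interval -0.01 to 0.72, or 0.09 to 0.62 with the replicate block), with pair differences of 0.36, 0.12 and 0.58. It was 0.21 without wild type array 3 and 0.20 with array weights. The limma adjusted p was 1.00, or 0.595 once replicate number entered as a block. Its other probe set read 9.47, 9.29 and 9.64 in mutant arrays, against 9.68, 9.35 and 8.97 in wild type arrays. There the groups overlapped, the first 2 pairs were lower and the third higher, and the difference was 0.14 (SE 0.19). Clstn2 read 6.32, 6.31 and 6.63 in mutant arrays, against 6.36, 6.37 and 6.76 in wild type arrays, lower in all 3 pairs by a small amount, with a difference of -0.08 (95% interval -0.43 to 0.27). With the replicate block the Clstn2 interval was -0.27 to 0.11. Mutant arrays 1 and 2 of Clstn2 lay below the limit of 6.35. The other Clstn2 probe set lay below the limit on every wild type array, at 6.13, 6.10 and 5.27, and also differed by -0.08. Clstn3 read 7.67, 7.84 and 7.44 in mutant arrays, against 7.91, 7.75 and 7.29 in wild type arrays, and its difference was 0.00 (95% interval -0.43 to 0.43).

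**Figure D3:**
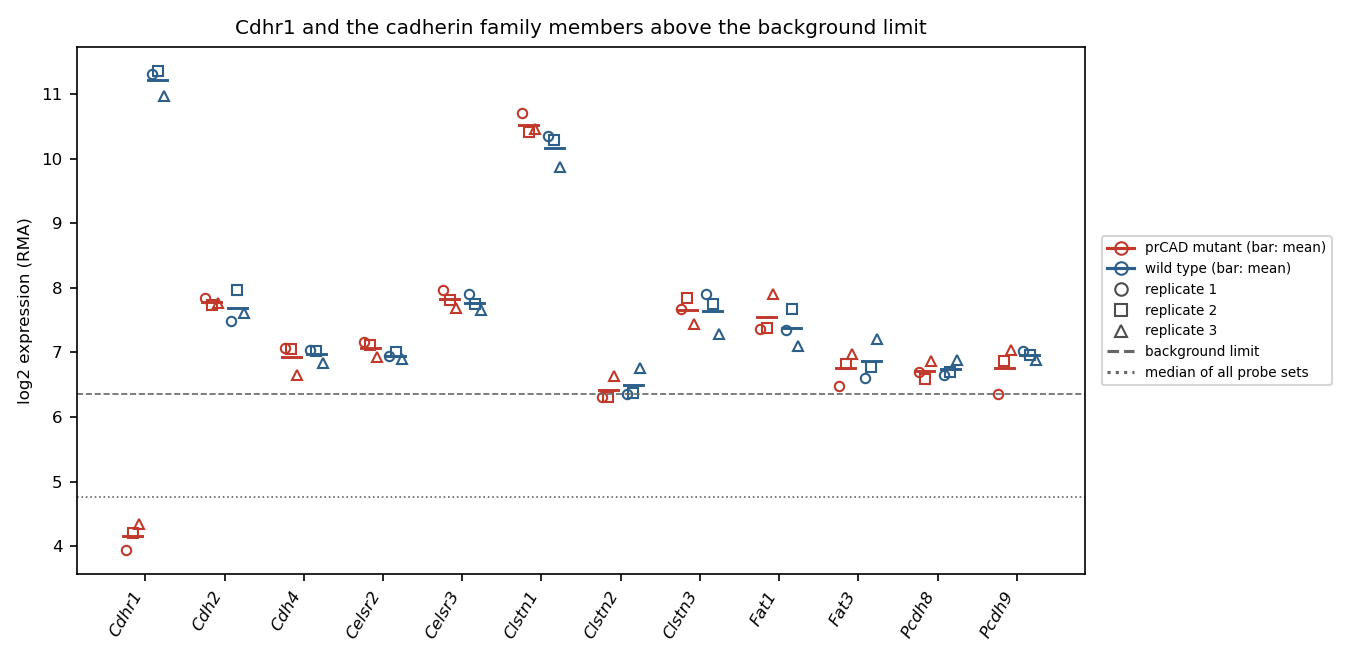
Log2 expression (vertical axis) in each array of Cdhr1 and of the 11 cadherin family genes above the background limit; mutant arrays are left of wild type arrays, symbols mark replicate numbers and bars are group means (n = 3 each). Only Cdhr1, whose mutant arrays lie below the limit, and Clstn1, at a difference of 0.35, have groups that do not overlap.

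Non-clustered protocadherins, which act in recognition between neurons, had 2 of 11 members above background, and 8 of the 11 lay lower in mutant retina. Pcdh9 read 6.36, 6.87 and 7.04 in mutant arrays, against 7.02, 6.96 and 6.89 in wild type arrays. Mutant array 1 was the lowest, and the other mutant arrays lay close to wild type. The difference of -0.20 (95% interval -0.62 to 0.22) was -0.08 and -0.44 at the other probe sets. Pcdh8 read 6.69, 6.59 and 6.87 in mutant arrays, against 6.65, 6.70 and 6.88 in wild type arrays. It differed by -0.03 (95% interval -0.30 to 0.24) at this probe set, which can cross-hybridise by its name, and by -0.27 (SE 0.14) at the other, where the groups did not overlap and the limma adjusted p was 1.00. Pcdh19, the gene of an X-linked human epilepsy, read 6.004, 6.23 and 6.12 in mutant arrays, against 6.07, 6.45 and 5.97 in wild type arrays, and its groups overlapped. Pcdh10 read 5.67, 5.62 and 5.15 in mutant arrays, against 5.61, 5.62 and 5.20 in wild type arrays, with array 3 the lowest in each group. It has 6 probe sets, which disagreed. The brightest differed by 0.00 (SE 0.18), while 2 dimmer ones differed by -0.45 (SE 0.27) and -0.46 (SE 0.15), the second with groups that did not overlap and an adjusted p of 1.00 (limma). Another dim one, at -0.15 (SE 0.09), had groups that did not overlap either, and the rest differed by 0.08 and -0.06. The mean of all Pcdh10 probe sets differed by -0.17. Pcdh7 read 4.72, 4.42 and 5.09 in mutant arrays, against 4.63, 4.76 and 4.93 in wild type arrays. Pcdh17 read 3.73, 4.25 and 3.97 in mutant arrays, against 3.78, 4.21 and 4.33 in wild type arrays, below the median of all probe sets. In both the groups overlapped.

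The clustered protocadherins, whose combinations give single neurons a surface identity, had 0 of the 23 counted members above background. They were the 22 beta genes and Pcdhgc4, and no other gamma gene was among the members. The alpha genes were not counted, because their 6 probe sets carry several symbols. Of these probe sets 2 were above the limit and are described at the end. The beta genes lie side by side on chromosome 18 and are close in sequence, so that probe sets may read more than 1 of them. Their differences had a median of 0.01, 12 were higher and 10 lower. Pcdhb22 read 3.07, 2.58 and 2.96 in mutant arrays, against 2.50, 2.68 and 2.75 in wild type arrays, near the floor of the scale.

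Without the block, the 3 members with an unadjusted p under 0.05 were all beta genes, and they are named here after their values were seen. Pcdhb17 read 5.62, 5.86 and 5.85 in mutant arrays, against 5.44, 5.48 and 5.37 in wild type arrays, with a difference of 0.35 (SE 0.10). Pcdhb20 read 6.10, 5.98 and 5.93 in mutant arrays, against 5.77, 5.62 and 5.85 in wild type arrays, with a difference of 0.26 (SE 0.10). Both had groups that did not overlap, with every mutant array higher. Pcdhb6 read 3.72, 4.01 and 4.18 in mutant arrays, against 4.27, 4.27 and 4.53 in wild type arrays, with every mutant array lower and a difference of -0.38 (SE 0.14). The limma adjusted p was 1.00 for each without the block. With the replicate block it was 0.541 for Pcdhb17, 0.629 for Pcdhb20 and 0.507 for Pcdhb6. Each lies below the limit in all arrays, and Pcdhb6 below the median too. With the replicate block the unadjusted p was also under 0.05 for Clstn1, Cdh26, Dsc3, Pcdhb9, Pcdhb19 and Pcdh11x, of which the last 2 are named here after their values were seen. Pcdhb19 read 4.34, 4.36 and 4.85 in mutant arrays, against 4.57, 4.52 and 5.12 in wild type arrays, and Pcdh11x read 4.01, 3.79 and 3.62 in mutant arrays, against 4.24, 4.30 and 3.78 in wild type arrays. Both were lower in all 3 pairs while the groups overlapped, with limma adjusted p of 0.629 for Pcdhb19 and 0.607 for Pcdh11x with the block.

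The largest difference of any member was that of Pcdhb9, also chosen after its values were seen, which read 6.29, 6.07 and 5.79 in mutant arrays, against 4.76, 3.75 and 6.09 in wild type arrays. Wild type array 3 lay within the mutant range, and wild type array 2 was the lowest of the 6. The pair differences were 1.53, 2.31 and -0.30. The fitted difference was 1.18 (95% interval -0.07 to 2.43), with a limma adjusted p of 1.00. With the replicate block the interval was 0.10 to 2.26 and the limma adjusted p 0.636. Pcdhb21, chosen in the same way, read 3.97, 4.20 and 6.47 in mutant arrays, against 4.55, 4.72 and 5.88 in wild type arrays. Array 3 was the highest in each group, and the genotypes differed by -0.16 (SE 0.68). With the replicate block, which takes up a shift shared by same-numbered arrays, the 95% interval was -0.72 to 0.39. At its dimmer probe set the 6 arrays lay between 2.42 and 3.19.

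**Figure D4:**
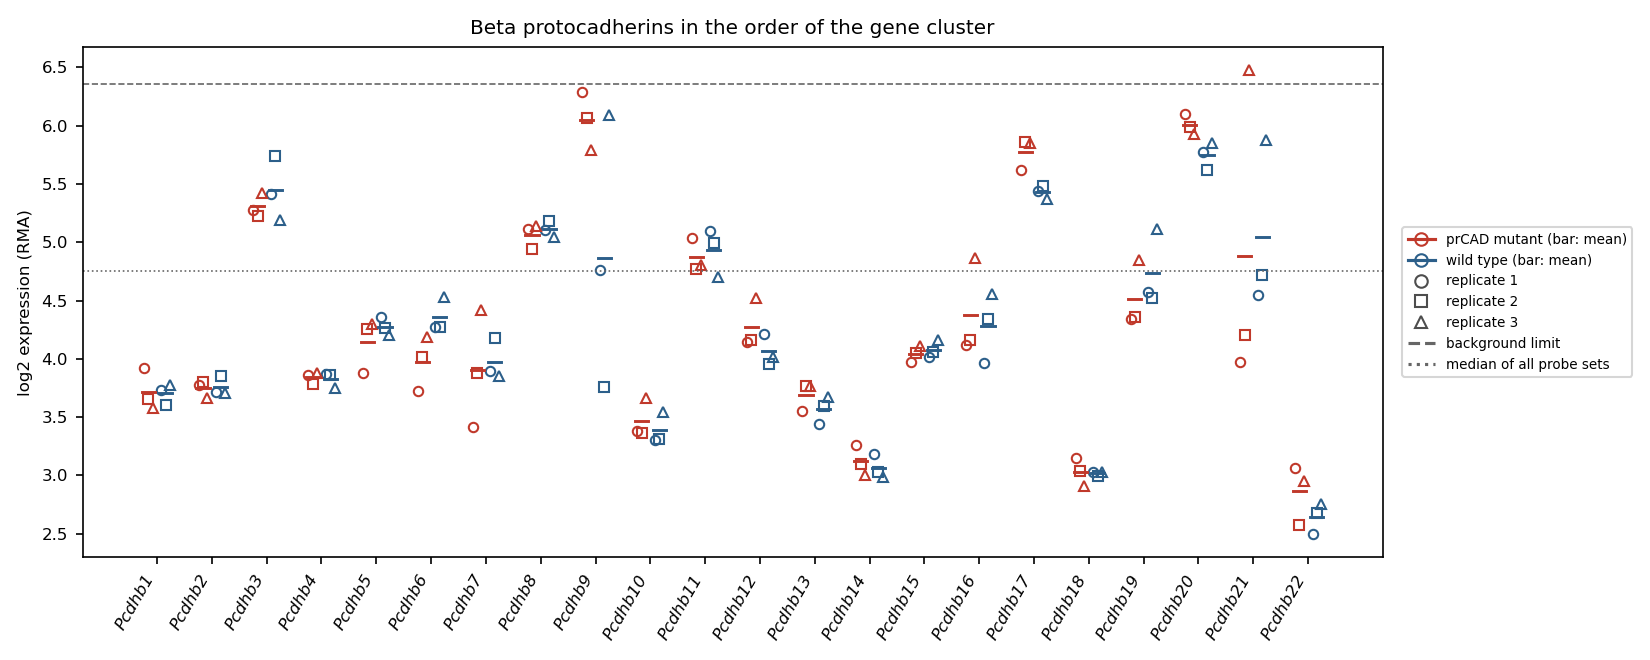
Log2 expression (vertical axis) of the 22 beta protocadherin genes in each array, in the order of the genes along the cluster (GRCm38.p6); mutant arrays are left of wild type arrays, symbols mark replicate numbers and bars are group means (n = 3 each). Group means lie close together for most genes, and the widest scatter is in Pcdhb9 and Pcdhb21.

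Desmosomal cadherins, which hold epithelia together, had 0 of 6 members above the median in every wild type array. Their differences lay between -0.09 (Dsg1a) and 0.25 (Dsc3). Over all members, 4 had every mutant array above every wild type array and 3 had every one below, which is 7 of 73 (9.59%). Among all named genes 5.89% were higher and 2.88% lower in this way. The 4 were Clstn1, Pcdhb17, Pcdhb20 and Dsc3, and the 3 were Cdh5, Pcdhb6 and Pcdh18. At the other probe sets of Clstn1, Dsc3, Cdh5 and Pcdh18 the groups overlapped. Dsc3 and Pcdh18 are named here after their values were seen. With both arrays of replicate 3 left out the count was 30 of 73, where 37.2% of all genes were separated with 2 arrays in each group.

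Partners of the cadherins inside the cell were measured as a list of 21 adhesion genes, chiefly catenins, plakophilins and nectins, of which 0 passed. The median difference was 0.01, with 13 higher and 8 lower. Jup, which encodes plakoglobin, differed by -0.17 (SE 0.10), and Ctnna1, which encodes alpha E catenin, by 0.23 (SE 0.16). Ctnna3, another alpha catenin gene, differed by -0.19 (SE 0.12), and Nectin3, a nectin of adherens junctions, by 0.28 (SE 0.28). Of 3 photoreceptor genes that act with Cdhr1 at the discs or shape the disc rim, 0 passed. Prom1, which encodes prominin 1, read 11.47, 11.27 and 11.23 in mutant arrays, against 11.38, 11.19 and 11.48 in wild type arrays, and its groups overlapped. Prph2 read 7.50, 6.62 and 6.23 in mutant arrays, against 7.76, 7.86 and 6.94 in wild type arrays, overlapping at -0.73 (SE 0.37). The mutant array was lower in every pair, by differences of -0.26, -1.23 and -0.70, and the limma adjusted p was 1.00, or 0.511 with the replicate block. Rom1 differed by -0.23 (SE 0.13). Both encode subunits of the disc rim complex.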

How the data were processed

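The values are log2 expression deposited by the authors. The submitters' processing notes name RMA, without a version or a genome build. RMA corrects background, normalizes between arrays and summarises probes, which removes differences in total signal between arrays. Array medians ran from 4.74 to 4.79. Of 45101 probe sets, 64 manufacturer controls were left out. Of the rest, 34945 have 1 gene symbol, 932 several and 9160 are not named here. The test was limma (version 3.58.1, R 4.3.3) on group, with Benjamini-Hochberg adjustment over 45037 probe sets at 0.05. The labels do not say whether pools came from separate experiments, so p-values measure the spread between these arrays.

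Groups follow the sample titles. Deviations from group means of same-numbered arrays correlated at 0.477, 0.469 and 0.563, and each mutant array correlated best with the wild type array of its number. The numbers were therefore taken as pairs, from the data and not from the labels. Members, gene lists, tests and alternatives were chosen with earlier results of these data known. Named with values per array were members with a listed role in the retina, up to 12 members above background with the smallest p, any member that passed in either fit, members whose probe sets above background opposed each other, and, from each other list, up to 4 genes with the smallest p; others are marked as chosen after their values were seen. Symbols of some list genes were updated through RefSeq synonyms. Alternatives were the replicate block, 2 further normalizations, a filter on dim probe sets, other variance models, other choices of probe set, other background limits and leaving out arrays. The limma fits were tested on simulated data that held no shift shared by same-numbered arrays. Promoters came from RefSeq (GRCm38.p6). Figures were drawn with matplotlib 3.10.9.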

Additional observations from a re-analysis of the deposited data

How the results depend on the processing

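The count of members that passed over all probe sets was 0 under every alternative run, also at an adjusted p under 0.1, and that of adhesion, polarity, Usher and disc partner genes was 0 too. The smallest adjusted p of a member was 0.181, without both arrays of replicate 3. Cdhr1 passed in each. The replicate block changed no call, but at an unadjusted p under 0.05 it gave 9 members in place of 3. That count was 5 with a further quantile normalization, 10 with array weights and 10 without both arrays of replicate 3, against 3.53%, 8.93% and 6.19% of all genes. Without single arrays it ran from 2 to 7, the highest without mutant replicate 3, where 5.29% of all genes passed. Members with separate groups numbered 30 of 73 without both replicate 3 arrays and 9 to 18 of 73 without single arrays. Separation is by construction easier with fewer arrays, and the shares of all genes were 37.2% and 15% to 24.4%. The highest count without a single array was again without mutant replicate 3, where 24.4% of all genes were separate. The median difference of the 11 members above background was -0.0094 with quantile normalization, 0.0131 with array weights, -0.0352 without both replicate 3 arrays and -0.0062 to 0.0931 without single arrays. The cause of these shifts was not tested. Members above background numbered 32 with the limit at the median of all probe sets, 32 at the 75th percentile of the list, 5 at its highest gene, and 10 to 11 without single arrays. Of 427 values of 29 named members under an alternative, 52 changed sign, 10 of these for members whose difference exceeded 0.1, and 4 moved by over 1 SD. The number of arrays limits precision, and background limits every member below 6.35.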

Other observations

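The alpha protocadherins entered no count above, because the annotation gives their 6 probe sets several gene symbols each. Of the 6, 2 were above the background limit in every wild type array. The first read 7.14, 7.35 and 7.21 in mutant arrays, against 7.23, 7.41 and 7.32 in wild type arrays, and the groups overlapped at a difference of -0.09 (SE 0.10). The second read 7.20, 6.95 and 6.66 in mutant arrays, against 7.49, 7.30 and 7.06 in wild type arrays. It was lower in the mutant array of every pair, with a difference of -0.35 (SE 0.17), and did not pass over all probe sets (limma adjusted p = 1.00, or 0.483 with the replicate block). The other 4 differed by -0.18 to -0.02.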
